A study of Mus musculus with 18 samples.

Results

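The comparison described here is that of dysferlin loss in skeletal muscle that had received neither a myostatin inhibitor nor a transgene. It set 3 arrays of *Dysf-/-* mice against 3 arrays of wild-type (*wt*) mice, 6 of the 18 arrays of the series, and was made gene by gene over 20259 genes. All RNA came from the quadriceps of 10-week-old male mice on a C57BL/6 background and was hybridized to the Affymetrix Mouse Exon 1.0 ST array, which carries probes for each exon. The other 12 arrays, with 3 per group, were from *wt* and *Dysf-/-* mice given ACVR2B/Fc, the soluble activin type IIB receptor, at 10 mg/kg in 4 weekly injections from 6 weeks of age, and from *F66* and *F66;Dysf-/-* mice. *F66* mice carry a follistatin transgene driven by a myosin light chain promoter of skeletal muscle. The transgene lies on the Y chromosome, so its carriers are male. The study asked what happens when the myostatin pathway is blocked in muscle whose membrane repair is impaired, and the untreated pair gives the state from which that starts.

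Dysferlin is a large protein with C2 domains, which bind calcium and phospholipids, in the plasma membrane and transverse tubules of muscle fibres. It takes part in sealing tears of the sarcolemma after contraction. Its loss causes limb-girdle muscular dystrophy type 2B and Miyoshi myopathy in people, slowly progressive diseases in which macrophages are prominent in affected muscle.

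The deposited values were on the log2 scale, in which a difference of 1 is a 2-fold difference. A gene was called when its adjusted p was under 0.05 (limma, Benjamini-Hochberg over 20259 genes). Over all rows the medians of the 6 arrays lay between 5.36 and 5.45, and pairs among them correlated at 0.958 to 0.975. Markers of skeletal muscle fibres gave summed linear signals of 44888 to 45962 in *wt* and 45807 to 47325 in *Dysf-/-*. Replicates were described by the submitters as biologically independent. No source states whether the untreated *wt* and *Dysf-/-* mice were littermates, so the targeted allele and any other difference between the lines cannot be told apart.

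*Dysf* itself, on chromosome 6, was checked first. Its log2 values were 8.62, 8.48 and 8.55 in *wt* and 6.76, 6.90 and 6.87 in *Dysf-/-*. All 3 *Dysf-/-* arrays lay far below all 3 *wt* arrays, and the gene had the smallest p of the comparison. The difference was -1.71 (SE 0.07), a 3.26-fold lower level, with an adjusted p of 2.11e-09. In the injected mice the values were 8.70, 8.55 and 8.66 against 7.10, 6.95 and 7.05, and with the transgene they were 8.90, 8.91 and 8.74 against 6.76, 6.79 and 6.92. Every array labelled *Dysf-/-* was therefore below every array labelled as carrying the gene. The remaining signal cannot be read as a level of intact transcript, since it was not analysed which exons the probes of this row cover.

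The muscle of untreated *Dysf-/-* mice differed from *wt* in a small set of genes. Macrophage and antigen presentation genes, a few matrix genes and the fusion factor gene *Mymk* were higher, and *Dysf*, *Inmt*, *Kcnf1*, *Nnt*, *Car14* and *Dok7* were among the genes that were lower. Of the 20259 genes 99 were called, which is 0.489% of those tested. Of these 61 (0.301% of all genes) were higher in *Dysf-/-* and 38 (0.188%) were lower. All 99 had groups that did not overlap, as did 13.5% of all genes tested. The differences were modest, with medians of 0.63 among the higher and -0.45 among the lower genes and a smallest called size of 0.25. More than 2-fold differences were found for 13 higher and 5 lower genes. At an unadjusted p under 0.05 there were 843 higher (4.16%) and 1151 lower (5.68%) genes, 9.84% in either direction. Of all genes 42.4% had a difference above 0. Counts of list members below are to be read against these shares of all genes. The number of calls depended on single arrays, with 37 and 31 genes called without *wt* replicate 2 and 3 and 41 and 47 without *Dysf-/-* replicate 1 and 3. In all 6 runs that left out 1 array, 22 higher and 7 lower genes were called. After centring the arrays on their medians, 60 higher and 25 lower genes were called.

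**Figure D1:**
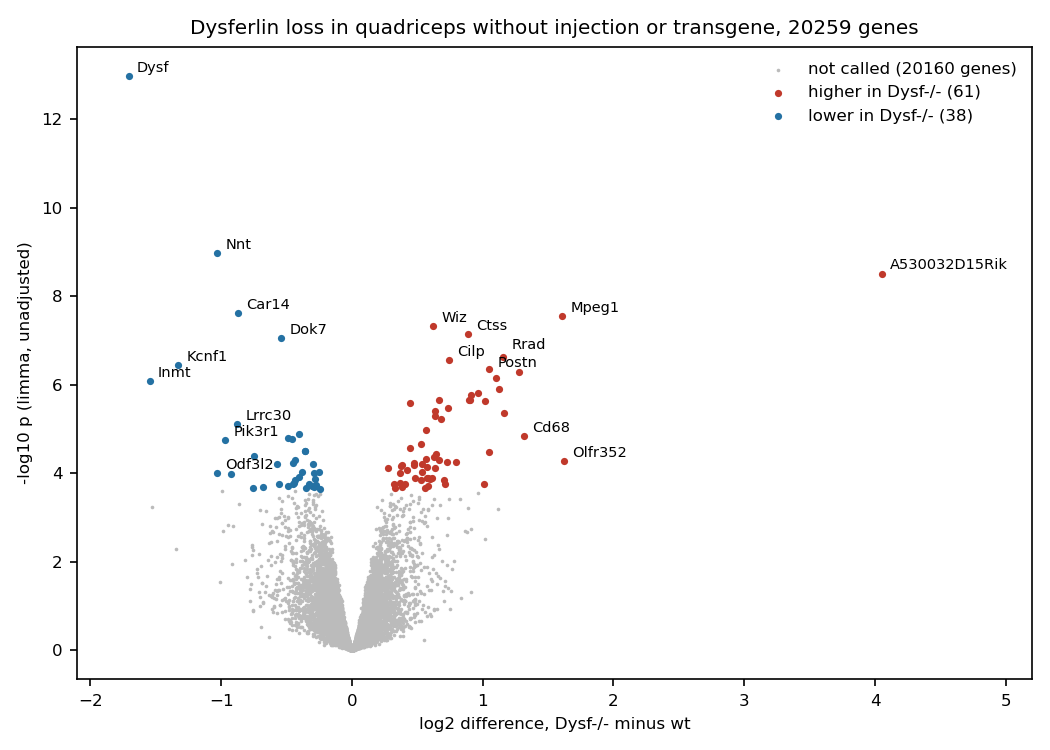
Log2 difference of *Dysf-/-* minus *wt* (horizontal axis) against -log10 of the unadjusted limma p (vertical axis) for 20259 genes, each point 1 gene, with the 61 genes called higher in red and the 38 called lower in blue. *Dysf* at -1.71 has the smallest p, and *A530032D15Rik* at 4.05 stands apart on the right.

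Of the 29 gene lists, that of macrophages held the most called genes. Of 32 measured macrophage and monocyte markers 11 were called higher and 0 lower, against 0.301% of all genes called higher. The median difference over the 32 markers was 0.44, against -0.02 over all genes. An unadjusted p under 0.05 was reached by 24 of them, all higher, against 4.16% of all genes. In a bulk sample, more cells of a type and more RNA per cell cannot be told apart.

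*Mpeg1*, which encodes the pore-forming perforin-2 of macrophages, had the largest change of the list. Its values were 5.02, 5.09 and 5.09 in *wt* and 6.82, 6.59 and 6.63 in *Dysf-/-*. The *wt* arrays were nearly identical and all *Dysf-/-* arrays were higher, by 1.61 (SE 0.16) or 3.05-fold, with an adjusted p of 0.000111. *Cd68*, a glycoprotein of macrophage lysosomes, measured 6.47, 6.43 and 6.48 in *wt* against 8.12, 7.47 and 7.73. The groups were well apart for *Cd68* too, with *Dysf-/-* replicate 1 the highest, and the difference was 1.32 (SE 0.21, adjusted p = 0.0092). *Adgre1*, the gene of the F4/80 antigen by which mouse macrophages are stained, measured 5.42, 5.32 and 5.29 in *wt* and 6.47, 6.09 and 6.16 in *Dysf-/-*. It was higher by 0.90 (SE 0.12, adjusted p = 0.00215).

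The other called markers covered the machinery of these cells. *Cybb*, the catalytic subunit of the phagocyte NADPH oxidase, measured 5.38, 5.07 and 4.99 in *wt* and 6.40, 6.07 and 6.04 in *Dysf-/-*, and was higher by 1.02. *Gpnmb*, a glycoprotein of phagocytes, rose by 1.16 from values of 5.98, 6.09 and 6.00 to 7.71, 6.79 and 7.05. Here *Dysf-/-* replicate 1 was far above the other arrays of its group. The receptor genes *Clec7a* (dectin-1), *Ccr2* (the monocyte receptor for Ccl2) and *Tyrobp* (the DAP12 signalling adaptor) were higher by 0.66, 0.64 and 0.58. *Lgals3*, which encodes galectin-3, and *Laptm5* were higher by 0.57 and 0.54. Of the 6 runs that left out 1 array, *Tyrobp* was called in 0, *Lgals3* and *Laptm5* in 1, and *Ccr2* in 2.

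The same array order ran through the list. *Dysf-/-* replicate 1 was the highest array of its group for 26 of the 32 markers. Mean levels over the list were 6.04, 6.11 and 6.00 in *wt* and 6.71, 6.41 and 6.49 in *Dysf-/-*, so that the groups did not overlap and the array with the highest mean was *Dysf-/-* replicate 1. Leaving it out left 6 of the 11 calls with a median of 0.37, and the count was 6 also without *wt* replicate 2 or 3. The calls of *Cd68* and *Ccr2* were among those lost without *Dysf-/-* replicate 1. With limma on these 6 arrays alone, 4 markers were called. Over the shorter set of 9 measured defining markers the summed linear signal was 764 to 851 in *wt* and 1160 to 1473 in *Dysf-/-*.

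Lysosome and phagocyte digestion genes overlapped with this group. Of 23 measured genes 22 had a difference above 0, 3 were called higher, against 0.301% of all genes, and the median was 0.15. The called genes were *Gpnmb*, *Ctss* and *Lgmn*. *Ctss* encodes cathepsin S, the protease that trims the invariant chain during loading of MHC class II. Its values of 6.52, 6.46 and 6.39 in *wt* and 7.62, 7.15 and 7.27 in *Dysf-/-* did not overlap and differed by 0.89 (SE 0.09, adjusted p = 0.000207). *Lgmn*, encoding the asparaginyl protease legumain, was higher by 0.37, and its call was lost in every run that left out 1 array.

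Antigen presentation genes were the other immune group with several calls. Of 8 measured MHC class II and dendritic cell genes 3 were called higher, against 0.301% of all genes, 0 were called lower, and the median was 0.29. *H2-Ab1* and *H2-Aa* encode the chains of the I-A molecule and are neighbours on chromosome 17, and *Cd74* encodes the invariant chain. *H2-Ab1* measured 6.59, 6.63 and 6.27 in *wt* and 7.58, 7.35 and 7.46 in *Dysf-/-*, a difference of 0.97 (SE 0.13, adjusted p = 0.00186). *Cd74* was higher by 0.90 and *H2-Aa* by 0.68, and all 3 genes were called in each run that left out 1 array.

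Innate receptors and chemokines contributed single genes. *C3ar1*, the receptor of the complement fragment C3a, was the only one of 15 complement genes called (0.301% of all genes were called higher). Its values were 5.91, 6.04 and 5.90 in *wt* and 7.26, 6.97 and 6.94 in *Dysf-/-*, a difference of 1.10 (SE 0.14, adjusted p = 0.00101). The gene has 2 rows on the array, with differences of 0.27 and 1.10, and with the mean of a gene's rows 0 complement genes were called. Of 27 chemokines and receptors 2 were called higher, against the same 0.301%, *Ccr2* and *Ccl9*, the latter at 0.63. *Ccl9* was called in 1 of the 6 runs that left out 1 array. *C1qb* and *C1qc*, the complement subunits made by macrophages, measured 0.61 and 0.43 higher with adjusted p of 0.168 and 0.141. Of 19 interferon-stimulated genes 0 were called, with 5 at an unadjusted p under 0.05 by limma, against 9.84% of all genes.

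Other genes of white blood cells lay outside these lists and were called higher. They included *Ptprc*, the pan-leukocyte CD45 phosphatase (0.57), *Lcp1*, the actin bundler L-plastin (0.63), *Nckap1l*, of the haematopoietic WAVE complex (0.63), and *Dock2*, an activator of Rac in leukocytes (0.38). *Slc11a1*, the metal transporter of phagosomes, was higher by 0.53, and the C-type lectin genes *Clec4a3* and *Clec12a* by 1.01 and 0.57. *Ly86*, *Pld4*, *Fyb*, *Cd84* and *Slamf7* were higher by 0.42 to 0.73. These genes were found by the call itself and not from a list, and many of the calls depended on single arrays. When 1 array was left out in turn, *Lcp1* and *Ly86* were called in all 6 runs and *Ptprc* in 5, without *wt* replicate 3 as the exception. *Nckap1l*, *Clec4a3* and *Slamf7* were called in 2 of the 6 runs, *Pld4*, *Fyb*, *Dock2* and *Slc11a1* in 1, and *Cd84* and *Clec12a* in 0.

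Lymphocyte and granulocyte markers gave no such calls. Of 18 measured T, B and NK cell markers 0 were called, with 0 at an unadjusted p under 0.05 by limma, and the median was -0.02. The marker nearest to a call was *Cd28* at -0.13 (adjusted p = 0.628). The summed linear signal of 4 T and B cell markers was 155 to 184 in *wt* and 145 to 167 in *Dysf-/-*, so the groups overlapped. Of 15 neutrophil and mast cell markers 0 were called and 1 reached an unadjusted p under 0.05. Their median was -0.06. Many of these markers were dim. A mean at or above the median of all rows was found for 9 of the 18 and 7 of the 15 markers. The same held for 31 of the 32 macrophage markers. The lack of calls therefore does not exclude a change in these cells.

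**Figure D2:**
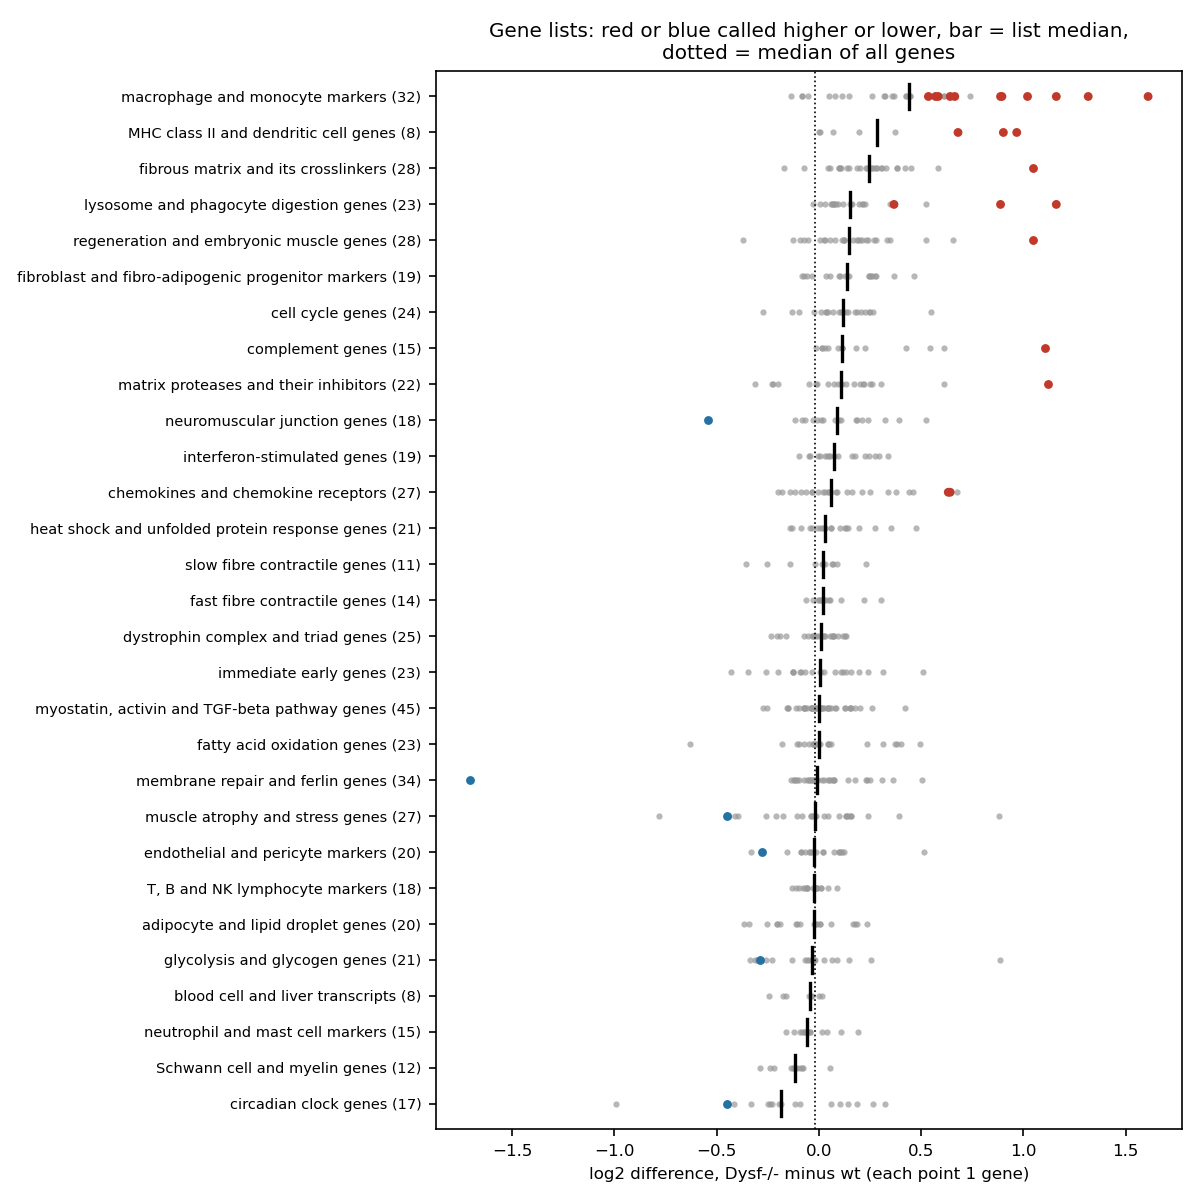
Log2 difference of *Dysf-/-* minus *wt* (horizontal axis) for each measured member of 29 gene lists, with the number measured in brackets; red and blue points are called, the bar is the list median and the dotted line the median of all genes (-0.02). The macrophage list stands highest with a median of 0.44 and 11 called genes, and the clock list lowest at -0.18.

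Matrix genes gave single calls. Of 28 fibrous matrix genes and crosslinkers 1 was called higher, against 0.301% of all genes, *Postn*, which encodes periostin, a matricellular protein of remodelling tissue. Its values were 7.27, 6.89 and 7.13 in *wt* and 8.36, 8.07 and 8.01 in *Dysf-/-*, a difference of 1.05 (SE 0.13, adjusted p = 0.000732). The median of the list was 0.24, 26 of its 28 genes had a difference above 0, and 17 had higher groups without overlap, against 5.21% of all genes. An unadjusted p under 0.05 was reached by 13, all higher, against 4.16% of all genes. *Col3a1*, a fibrillar collagen, measured 7.90, 7.72 and 7.64 against 8.38, 8.07 and 8.17, a difference of 0.45 with an adjusted p of 0.0585. Fibronectin (*Fn1*) measured 0.59 higher with an adjusted p of 0.0826.

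Among 22 matrix proteases and inhibitors *Timp1*, an inhibitor of matrix metalloproteinases, was the only gene called, against 0.489% of all genes. It measured 5.55, 5.17 and 5.28 in *wt* and 6.66, 6.28 and 6.43 in *Dysf-/-*, 1.12 higher (SE 0.15, adjusted p = 0.00161). *Cilp*, a matrix protein first known from cartilage, measured 7.08, 6.81 and 6.85 in *wt* and 7.60, 7.66 and 7.70 in *Dysf-/-*. Its 3 *Dysf-/-* values were close together and all above *wt*, by 0.74 (SE 0.09, adjusted p = 0.000571). *C1qtnf3* was higher by 0.80 and *Cd44*, the hyaluronan receptor, by 0.47, and each was called in 2 of the 6 runs that left out 1 array. Of 19 fibroblast and fibro-adipogenic progenitor markers 0 were called, and the median was 0.14. An unadjusted p under 0.05 by limma was reached by 5, against 9.84% of all genes.

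Regeneration was represented by 1 call. *Mymk* encodes myomaker, the membrane protein with which myoblasts fuse, and its values were 6.52, 6.07 and 5.87 in *wt* and 7.18, 7.18 and 7.23 in *Dysf-/-*. The *Dysf-/-* arrays were tightly grouped above a more scattered *wt* group, and the difference was 1.05 (SE 0.18, adjusted p = 0.0166). The call was lost in 4 of the 6 runs that left out 1 array. *Myog*, the myogenic factor of differentiating myoblasts, measured 6.86, 6.99 and 6.76 against 7.25, 7.39 and 7.54, a difference of 0.53 with an adjusted p of 0.0884. Over the 28 regeneration and embryonic muscle genes the median was 0.15, and an unadjusted p under 0.05 was reached by 10 as higher (4.16% of all genes) and by 1 as lower. The lowest member, looked up after the values were seen, was *Igf1*, a growth factor of muscle, at -0.37. Of 24 cell cycle genes 0 were called and 8 reached an unadjusted p under 0.05 by limma, all higher (4.16% of all genes). *Mki67*, a protein of dividing cells, measured 0.55 higher with an adjusted p of 0.12.

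Several increases fell in no list. *Rrad*, a small GTPase that binds calcium channel subunits, measured 6.41, 6.06 and 6.25 in *wt* and 7.53, 7.57 and 7.09 in *Dysf-/-*, and rose by 1.16 (SE 0.13, adjusted p = 0.000543). *Mtm1*, the phosphoinositide phosphatase lost in X-linked myotubular myopathy, was higher by 0.73, and its call was lost in 5 of the 6 runs that left out 1 array. The array has 29 rows for *Mtm1*, all with a difference above 0, from 0.07 to 3.28 with a median of 0.58. *Slc8a3*, a sodium-calcium exchanger, was higher by 0.59, and its call was lost in each run that left out 1 array. *Wiz*, a zinc finger protein, was among the more precise increases at 0.62 (SE 0.06, adjusted p = 0.000158).

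The single largest difference belonged to *A530032D15Rik*, a gene on chromosome 1 for which no role is given here. Its values were 6.08, 6.06 and 5.04 in *wt* and 9.86, 9.91 and 9.55 in *Dysf-/-*, 4.05 apart (SE 0.33, 16.6-fold, adjusted p = 2.15e-05). Only 1 of its 3 rows rose, and the lowest of the 3 measured -0.23. *Olfr352*, an olfactory receptor gene with *wt* values of 3.55, 3.70 and 3.29, measured 5.40, 5.50 and 4.50 in *Dysf-/-*. It lay below the median of all values (5.37) in *wt*, and its call was lost in 5 of the 6 runs that left out 1 array.

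**Figure D3:**
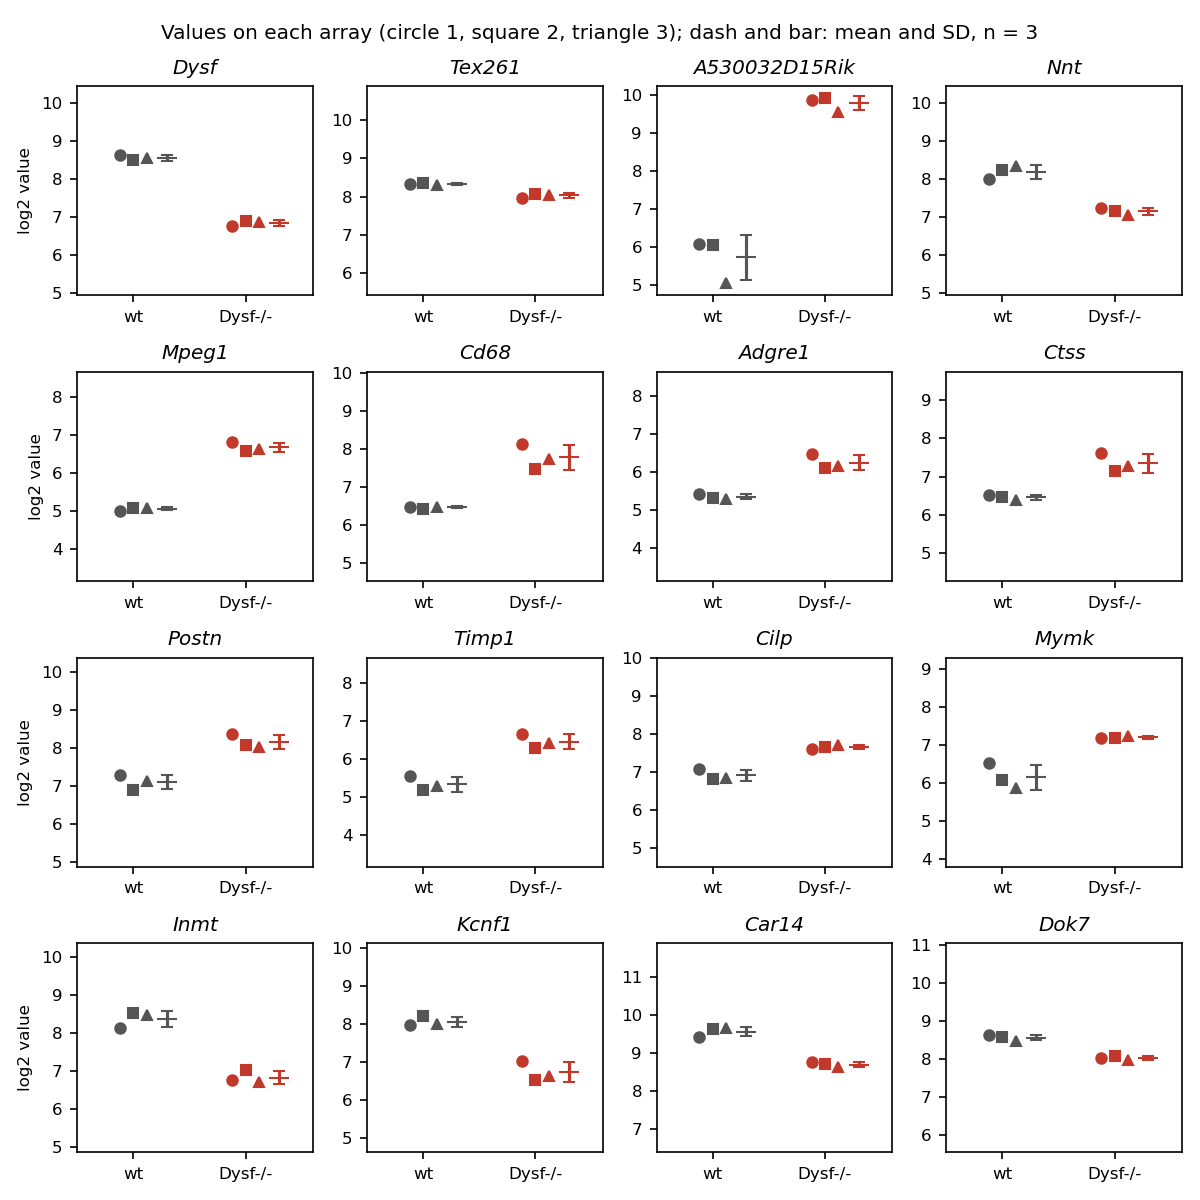
Log2 value (vertical axis, each panel spanning the same range) on each *wt* (grey) and *Dysf-/-* (red) array for 16 genes; circles, squares and triangles are replicates 1, 2 and 3, and the dash with its bar is the mean with the SD (n = 3). In every panel the groups are separate, from -0.30 for *Tex261* to 4.05 for *A530032D15Rik*.

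Among the decreases, *Inmt*, an indolethylamine methyltransferase, followed *Dysf* in size. It measured 8.15, 8.52 and 8.49 in *wt* and 6.77, 7.03 and 6.71 in *Dysf-/-*, and fell by 1.55 (SE 0.19, adjusted p = 0.0011). *Kcnf1*, a modifier subunit of voltage-gated potassium channels, measured 7.98, 8.22 and 8.0 against 7.04, 6.54 and 6.63 and fell by 1.33 (SE 0.16, adjusted p = 0.000655). For both genes all *Dysf-/-* arrays lay well below all *wt* arrays. *Car14*, a membrane-bound carbonic anhydrase, measured 9.42, 9.62 and 9.65 against 8.75, 8.70 and 8.62 and fell by 0.87 (SE 0.08, adjusted p = 0.000111). It has 3 rows, with differences from -0.87 to 0.05, and was not called with their mean (-0.53, adjusted p = 0.0884).

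*Nnt* encodes the mitochondrial transhydrogenase that makes NADPH from NADH, and the C57BL/6J substrain is known to carry a deletion in it. Its values were 7.98, 8.24 and 8.32 in *wt* and 7.23, 7.16 and 7.05 in *Dysf-/-*, a difference of -1.03 (SE 0.08) with an adjusted p of 1.09e-05. In injected mice it was 8.17, 8.02 and 8.17 against 7.04, 7.0 and 7.06, and with the transgene 8.13, 8.02 and 8.06 against 7.91, 7.97 and 7.87. Among the 9 *Dysf-/-* arrays the gene was thus low in the 6 without the transgene and near the level of *wt* in the 3 with it. According to the study's methods, *F66;Dysf-/-* and *F66;Dysf+/+* males came from matings of *F66;Dysf+/-* males with *Dysf+/-* females. How the *wt* and *Dysf-/-* mice without the transgene were bred is not stated. The substrain of each group is not given in the sources used here, and the part of substrain or breeding in the result was not tested.

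Other decreases were of single genes from different lists or from none. *Dok7*, the cytoplasmic activator of the muscle receptor kinase MuSK, was the only called gene of 18 neuromuscular junction genes, against 0.489% of all genes. It measured 8.63, 8.60 and 8.49 in *wt* and 8.03, 8.08 and 7.97 in *Dysf-/-*, and fell by 0.54 (SE 0.06, adjusted p = 0.000225). The list did not share its direction, with a median of 0.09, 12 of 18 genes above 0, and an unadjusted p under 0.05 for 5 with a positive and 1 with a negative difference. *Pik3r1*, the p85 regulatory subunit of PI 3-kinase, fell by 0.97 (SE 0.16, adjusted p = 0.0103) from 8.34, 8.65 and 8.71 to 7.86, 7.54 and 7.37. *Slc7a8*, an amino acid exchanger, fell by 0.57, and *Aldh1a1*, a retinaldehyde dehydrogenase, by 0.56. *Slc16a3*, the lactate exporter MCT4, fell by 0.29 and was the only called gene of 21 glycolysis and glycogen genes, against 0.489% of all genes. *Ivd*, which acts in leucine breakdown, fell by 0.36. *Doc2b*, a calcium sensor of exocytosis that has C2 domains as dysferlin does, fell by 0.49. *Syt12*, a synaptotagmin, and *Rab27a*, a small GTPase of vesicle transport, fell by 0.44 and 0.38. The calls of *Doc2b* and *Syt12* were lost in every run that left out 1 array.

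*Klf15* and *Per1* are both transcribed in response to glucocorticoids, and *Per1* is a core repressor of the circadian clock. *Per1* measured 9.60, 9.68 and 9.73 in *wt* and 9.26, 9.09 and 9.31 in *Dysf-/-*, a difference of -0.45 (SE 0.08, adjusted p = 0.0231). *Klf15* was the only called gene of 27 atrophy and stress genes, against 0.489% of all genes. It measured 8.38, 8.52 and 8.56 against 8.06, 7.96 and 8.08. The difference was -0.45 with an adjusted p of 0.0413 that passed the threshold in none of the 6 runs with 1 array left out. The 27 genes did not share this direction, with a median of -0.02, 12 above 0 and a span from -0.78 (*Ddit4*) to 0.88 (*Mt2*). Limma gave 3 of them as higher and 2 as lower at an unadjusted p under 0.05, against 4.16% and 5.68% of all genes. Of 17 clock genes *Per1* alone was called, against 0.489% of all genes, and its call was lost in 4 of the 6 runs that left out 1 array. The median of the list was -0.18, and 5 genes reached an unadjusted p under 0.05, all lower, against 5.68% of all genes. *Ciart*, a clock repressor, measured 8.42, 8.75 and 9.02 against 7.71, 8.29 and 7.21, so its groups were apart by little and its *Dysf-/-* arrays were widely scattered (difference -0.99, adjusted p = 0.0512). The hour at which each muscle was taken is not given in the sources used here.

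Promoter sequences were searched for 2 short motifs on both strands, GAGGAAG, the core of the site of PU.1, a factor of the macrophage lineage, and CACGTG, the E-box of clock and Myc factors. RefSeq promoters (build GRCm38.p6), 300 bases from 250 before the start site, were found for 46 of the 61 higher and 31 of the 38 lower genes. GAGGAAG was present in 7 of 57 promoters of higher genes (12.3%) and in 13.6% of all 32851 promoters. Among the called macrophage markers, 2 of 10 promoters held it, those of *Ctss* and *Laptm5*, and that of *Mpeg1* did not. CACGTG was present in 4 of 42 promoters of lower genes (9.52%), those of *Ddt*, *Klf15*, *Per1* and *Rab27a*, and in 7.15% of all promoters. These shares lay near those of all promoters. The letters that carry these matches are given for the promoters of *Ctss* and *Laptm5*, with the reverse complement of GAGGAAG in capitals, and of *Klf15* and *Per1* (the first of its 2 start sites), with CACGTG in capitals, all 5′ to 3′.
Ctss, chr3:95526536-95526835, + strand: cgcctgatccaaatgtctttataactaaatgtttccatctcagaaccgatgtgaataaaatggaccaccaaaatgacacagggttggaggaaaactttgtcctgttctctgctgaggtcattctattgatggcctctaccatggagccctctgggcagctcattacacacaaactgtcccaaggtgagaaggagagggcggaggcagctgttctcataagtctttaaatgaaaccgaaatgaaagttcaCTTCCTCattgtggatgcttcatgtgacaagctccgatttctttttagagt
Laptm5, chr4:130913066-130913365, + strand: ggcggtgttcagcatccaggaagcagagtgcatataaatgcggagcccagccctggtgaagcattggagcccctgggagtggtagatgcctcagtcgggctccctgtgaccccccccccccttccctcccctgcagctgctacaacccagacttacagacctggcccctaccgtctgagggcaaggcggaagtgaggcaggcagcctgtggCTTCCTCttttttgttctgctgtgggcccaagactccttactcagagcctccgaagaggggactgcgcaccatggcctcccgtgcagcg
Klf15, chr6:90462326-90462625, + strand: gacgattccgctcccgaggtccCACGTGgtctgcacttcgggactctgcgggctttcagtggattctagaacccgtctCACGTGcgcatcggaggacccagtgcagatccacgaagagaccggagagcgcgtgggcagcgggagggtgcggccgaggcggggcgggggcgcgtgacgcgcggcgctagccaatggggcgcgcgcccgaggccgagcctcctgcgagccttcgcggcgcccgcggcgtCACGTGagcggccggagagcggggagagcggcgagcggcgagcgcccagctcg
Per1, chr11:69098699-69098998, + strand: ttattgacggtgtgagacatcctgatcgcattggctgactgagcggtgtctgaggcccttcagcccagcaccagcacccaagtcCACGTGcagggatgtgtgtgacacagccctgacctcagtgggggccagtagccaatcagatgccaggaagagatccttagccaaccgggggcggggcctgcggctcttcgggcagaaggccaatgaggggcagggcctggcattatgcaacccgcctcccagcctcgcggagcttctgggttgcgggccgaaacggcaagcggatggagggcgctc
The match in *Ctss* spans the start site and that of *Klf15* has 3 matches. A match describes the letters only and says nothing of whether a factor binds there.

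The programmes closest to the lesion itself gave no call beyond *Dysf*. Of 34 membrane repair and ferlin genes *Dysf* alone was called, against 0.489% of all genes, and the median was -0.01. Limma gave 4 of them as higher and 1, *Dysf* itself, as lower at an unadjusted p under 0.05, against 4.16% and 5.68% of all genes. With dim genes filtered out, 1 of the 34 was called higher too. Myoferlin (*Myof*), the ferlin most like dysferlin, measured 6.55, 6.41 and 6.53 in *wt* and 6.94, 6.84 and 6.80 in *Dysf-/-*. Its groups did not overlap, but the difference of 0.36 (95% confidence interval 0.18 to 0.55) had an adjusted p of 0.0826. The annexins of the repair cap, *Anxa1* and *Anxa2*, differed by 0.24 (-0.01 to 0.48) and 0.08 (-0.13 to 0.28), and their S100 partner *S100a10* by 0.07 (-0.19 to 0.33). *S100a4* differed by 0.18 (-0.04 to 0.39). The protease gene *Capn3*, mutated in limb-girdle dystrophy type 2A, differed by -0.04 (-0.43 to 0.35). *Tubb6*, a tubulin of the list, measured 0.50 higher with an adjusted p of 0.0746. Of 25 genes of the dystrophin complex and the triad 0 were called and 2 reached an unadjusted p under 0.05 by limma.

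The contractile programme and the pathway that the study blocked gave no calls. Of 11 slow and 14 fast fibre genes 0 were called, with 0 and 2 at an unadjusted p under 0.05 by limma and medians of 0.02 for both. Of 45 myostatin, activin and TGF-beta pathway genes 0 were called, and an unadjusted p under 0.05 was reached by 4 as higher and 1 as lower (limma). Myostatin (*Mstn*) measured 10.75, 10.56 and 10.86 in *wt* and 10.42, 10.86 and 10.55 in *Dysf-/-*, with overlapping groups and a difference of -0.11 (-0.33 to 0.10). *Gdf11*, a close relative of myostatin, differed by -0.06 (-0.27 to 0.15). The activin and inhibin subunit genes *Inhba* and *Inha* differed by 0.15 (-0.29 to 0.60) and -0.07 (-0.36 to 0.21). *Fst*, encoding follistatin, differed by -0.01 (-0.29 to 0.26). These are 95% confidence intervals of single genes and do not exclude small changes.

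Energy metabolism and the markers of the remaining cell types gave few calls. Of 23 fatty acid oxidation genes and 20 adipocyte and lipid droplet genes 0 were called. An unadjusted p under 0.05 by limma was reached by 4 in each set, against 9.84% of all genes. *Pfkfb3*, a regulator of glycolysis, measured 8.84, 9.45 and 8.96 against 10.10, 9.65 and 10.16, a difference of 0.89 with an adjusted p of 0.0826. It was the highest of the 21 glycolysis and glycogen genes, and the list did not share its direction. The list median was -0.03, and 6 of the 21 genes lay above 0. Limma gave 2 higher and 6 lower genes at an unadjusted p under 0.05, against 4.16% and 5.68% of all genes. Of 20 endothelial and pericyte markers *Ramp2* alone was called, at -0.28, against 0.489% of all genes called. Its call was lost in each run that left out 1 array and after centring the arrays, and the gene was called in neither other comparison of dysferlin loss. *Kdr*, the VEGF receptor, measured 0.51 higher with an adjusted p of 0.0621. The summed linear signal of 4 defining endothelial markers was 1201 to 1469 in *wt* and 1495 to 1540 in *Dysf-/-*. The 20 markers of the list did not share this direction, with a median of -0.02 and 9 above 0. An unadjusted p under 0.05 by limma was reached by 2 as higher and 2 as lower. Of 12 Schwann cell and myelin genes 0 were called, 2 reached an unadjusted p under 0.05 as lower, and 11 of 12 had a difference below 0 with a median of -0.12. Of the 23 immediate early, 21 heat shock and 8 blood and liver genes 0 were called. An unadjusted p under 0.05 by limma was reached by 2, 3 and 2 of them, against 9.84% of all genes.

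The genes next to a targeted locus travel with it in crosses, so the 40 tested genes on each side of *Dysf* were described by their order along chromosome 6. Of the 80, 1 (1.25%) was called and 14 (17.5%) reached an unadjusted p under 0.05, against 0.489% and 9.84% of all genes. The median was -0.06. The called gene was *Tex261*, 4 tested genes from *Dysf*, with values of 8.33, 8.36 and 8.29 in *wt* and 7.95, 8.08 and 8.05 in *Dysf-/-*. It fell by 0.30 (SE 0.05, adjusted p = 0.0231), and its difference was -0.25 (adjusted p = 0.0282) in the injected mice and -0.26 (adjusted p = 0.00179) with the transgene. In the untreated pair its call was lost in 5 of the 6 runs that left out 1 array. Over the whole of chromosome 6, 13 of 1107 genes (1.17%) were called. They included *Dysf* itself and, outside the 80 neighbours, *C3ar1*, *Clec4a3*, *Clec7a*, *Clec12a* and *Gpnmb*, described above with the immune genes.

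**Figure D4:**
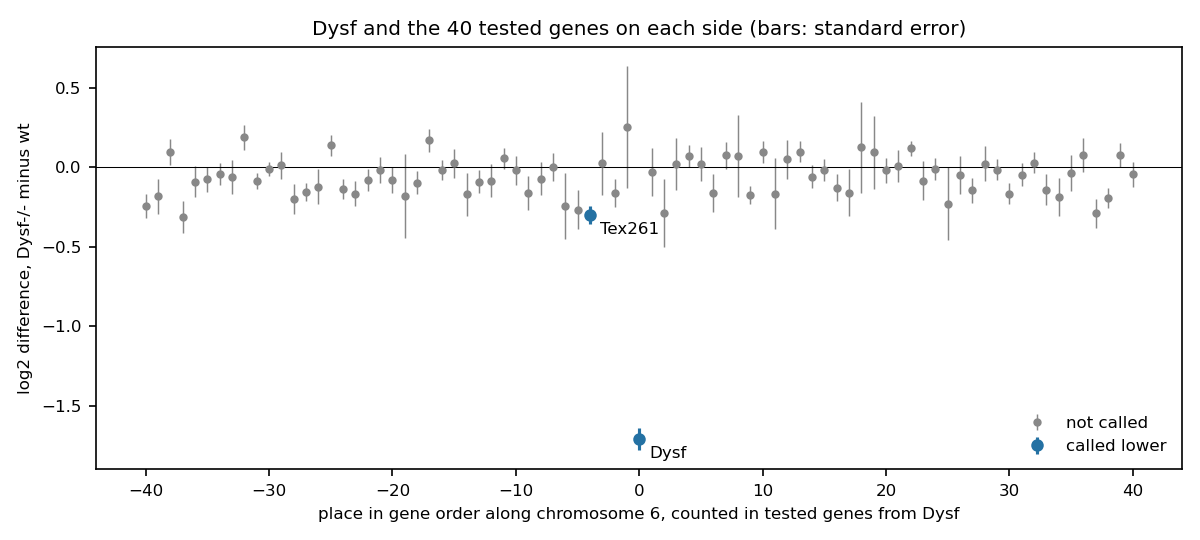
Log2 difference of *Dysf-/-* minus *wt* (vertical axis, bars are standard errors) for *Dysf* and the 40 tested genes on each side, placed by gene order along chromosome 6 (horizontal axis). *Dysf* lies at -1.71 and *Tex261* at -0.30, and no other gene shown was called.

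The 99 genes were then read in the 12 arrays whose values do not enter the untreated difference, although they entered the estimate of spread and the choice of row for each gene. Dysferlin loss was measured a second time between ACVR2B/Fc-injected *Dysf-/-* and *wt* mice, where 387 genes (1.91%) were called, and again between *F66;Dysf-/-* and *F66* mice, where 7034 (34.7%) were called. These comparisons share no array with each other or with the untreated pair. No source states whether the injected *wt* and *Dysf-/-* mice were littermates. In that pair too, the targeted allele and any other difference between the lines cannot be told apart. Of the 61 higher genes 59 had the same sign in the injected mice and 52 (85.2%) were called higher, against 1.33% of all genes, with a median of 0.75. With the transgene 58 had the same sign and 56 (91.8%) were called higher, against 14.5% of all genes, with a median of 1.91. Of the 38 lower genes 31 had the same sign in the injected mice and 13 (34.2%) were called lower against 0.582% of all genes. Their median there was -0.26. With the transgene 37 had the same sign and 31 (81.6%) were called lower, against 20.3% of all genes, with a median of -0.65. The split of all calls with the transgene was 2930 higher and 4104 lower as deposited but 3320 higher and 2726 lower after centring the arrays on their medians.

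Of the 99 genes, 61 were called with the same sign in both other comparisons, 49 higher and 12 lower, and 7 were called in neither. The 49 included the macrophage and MHC class II genes described above. *Mpeg1* measured 5.09, 5.66 and 5.23 in injected *wt* and 6.76, 7.17 and 7.43 in injected *Dysf-/-* mice, and 5.80, 5.94 and 5.90 in *F66* and 9.68, 9.33 and 9.60 in *F66;Dysf-/-* mice. It was thus higher with dysferlin loss in all 3 settings, by 1.61, 1.79 and 3.66. *Postn* differed by 1.05, 1.37 and 3.49 and *Mymk* by 1.05, 1.42 and 3.14. *Inmt* differed by -1.55, -1.95 and -1.59, and *Pik3r1* by -0.97, -0.91 and -1.0. *Per1* measured -0.05 in the injected mice (adjusted p = 0.862) but was lower with the transgene (-0.35, adjusted p = 0.00345), as in the untreated pair. *Slc8a3* measured -0.03 and -0.11 in the other pairs, against 0.59 in the untreated one. *Olfr352* measured -0.68 and -0.22, against 1.62.

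**Figure D5:**
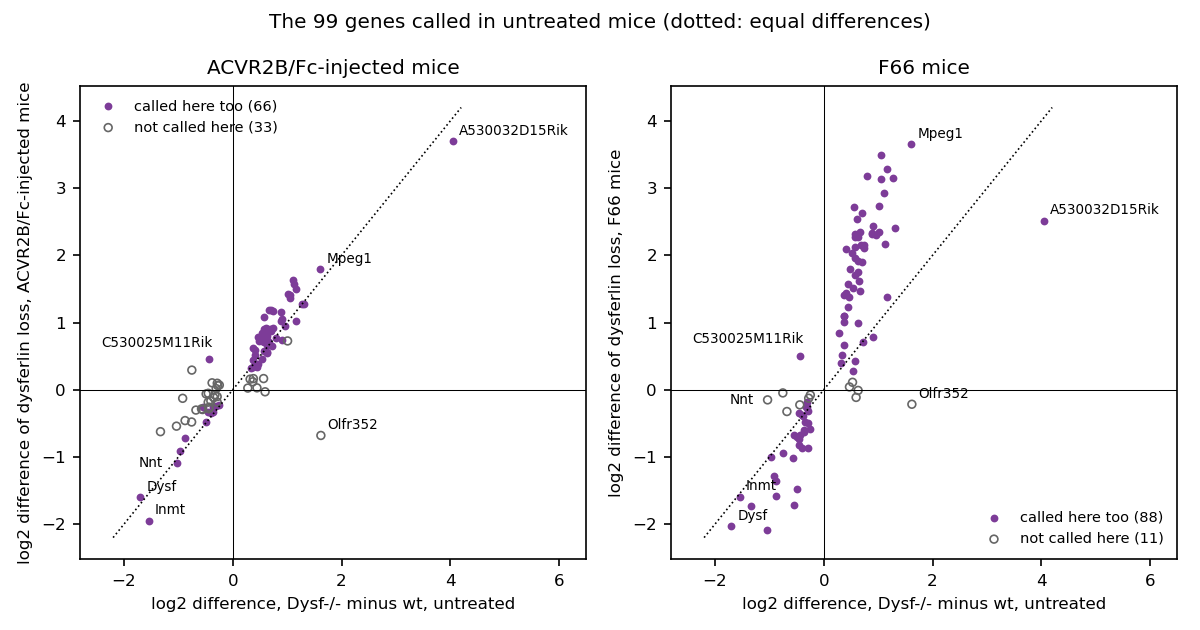
Log2 difference of dysferlin loss for the 99 called genes in untreated mice (horizontal axis) and in ACVR2B/Fc-injected or *F66* mice (vertical axis), with filled points for genes called there too (66 and 88 in either direction) and a dotted line of equal differences. Higher genes lie close to the line in injected mice and well above it with the transgene, with medians of 0.75 and 1.91.

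The difference between these effects was tested as an interaction. These tests use the same 6 untreated arrays that chose the genes. Between injected and untreated mice the effect of dysferlin loss differed for 1 gene of 20259 (0.00494%), *C530025M11Rik*, with 1570 genes (7.75%) at an unadjusted p under 0.05 by limma. Its values were 6.94, 7.14 and 7.29 in *wt* and 6.66, 6.68 and 6.73 in *Dysf-/-*, but 6.72, 6.76 and 6.79 in injected *wt* and 7.23, 7.29 and 7.12 in injected *Dysf-/-*. With the 12 arrays alone or the mean of a gene's rows 0 genes were called, and with 1 array left out 0 to 3. The untreated arrays are labelled as having no treatment. The study's injection experiment also had mice given PBS, but no array is labelled as coming from them. The injected arrays thus have no labelled vehicle group beside them. Between *F66* and untreated mice the effect differed for 3336 genes (16.5%). Of the 61 higher genes 53 were among them, 47 with a larger value under the transgene, a direction called for 8.54% of all genes, and of the 38 lower genes 13 were among them. *Mpeg1*, *Postn* and *Mymk* had differences of effect of 2.05, 2.44 and 2.09.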

How the data were processed

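Quadriceps RNA was profiled on 18 exon arrays (Affymetrix Mouse Exon 1.0 ST), grouped by their labels. The values deposited by the authors were log2 intensities for 115830 rows, made with RMA in Partek against build mm9 according to the submitters' processing notes. Their settings are not given in the sources used here. RMA corrects background, quantile normalizes and summarizes probes, which compresses differences of dim genes and lessens shifts common to most genes. Array medians over all rows still ran from 5.27 (*F66;Dysf-/-* replicate 1) to 5.45 (*wt* replicate 2). No detection calls were used, and 26.1% of the genes had a mean below the median of all rows. The number of arrays limits the precision.

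Symbols came from the platform annotation, which gave 1 symbol to 25539 rows and several to 2300, and had no entry for 87991. Gene numbers linked 24941 of the single-symbol rows to RefSeq. Where a gene had more than 1 row (3109 genes), its brightest row, by the mean of the 18 arrays, stood for it. No 2 arrays were identical, and no scan date or batch was present in the files used.

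limma 3.58.1 in R 4.3.3 was fitted to 6 group means over all 18 arrays (lmFit, contrasts.fit, eBayes), with Benjamini-Hochberg adjustment over the 20259 genes of each comparison. It was tested on simulated data. An exact two-sided permutation test of 3 arrays against 3 cannot go below 0.1 and was not used. The members and gene lists were chosen with earlier results of these data known. Lists are described by counts and medians without a test. All genes called in the untreated comparison could be named. The 10 largest increases and decreases, up to 4 members of a list with the smallest p, the genes named in the study and called genes near *Dysf* were eligible for description. Alternatives were the compared or the 12 transgene-free arrays alone, Student's t-test, a replicate block, other row choices, scalings, filters and eBayes options, and leaving out each array in turn. Promoters were from RefSeq (GRCm38.p6). Figures were drawn with matplotlib 3.10.9.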

Additional observations from a re-analysis of the deposited data

Results flagged for a closer look

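The results collected here are those for which the effect of dysferlin loss differed between settings in a limma interaction test (adjusted p under 0.05). The value in brackets is the difference of 2 log2 differences, the effect with ACVR2B/Fc or the transgene minus that in untreated mice, and the genes had been called in the untreated pair, whose 6 arrays enter both sides. With groups of 3, single arrays were not tested as outliers.

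Between injected and untreated mice the effect differed for *C530025M11Rik* by 0.89 (adjusted p = 0.0129), from -0.43 without to 0.46 with injection. The call was lost with the mean of the gene's 2 rows and on the 12 arrays without a transgene, where 0 genes were called. The untreated arrays are labelled as having no treatment, and no array is labelled as coming from mice given PBS.

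With the *F66* transgene the effect was larger for all 11 called macrophage markers, *Gpnmb* (2.12), *Mpeg1* (2.05), *Cybb* (1.71), *Clec7a* (1.68), *Ctss* (1.44), *Adgre1* (1.42), *Tyrobp* (1.38), *Lgals3* (1.13), *Cd68* (1.09), *Laptm5* (0.99) and *Ccr2* (0.98). The MHC class II genes *Cd74* (1.54), *H2-Aa* (1.47) and *H2-Ab1* (1.33) had larger effects too, as had *C3ar1* (1.83), *Ccl9* (1.12) and *Lgmn* (0.73). Further genes of white blood cells with larger effects were *Cd84* (2.16), *Apobec1* (1.92), *Ptprc* (1.76), *Clec12a* (1.70), *Fyb* (1.67), *Nckap1l* (1.64), *Slc11a1* (1.51), *Ly86* (1.37), *Clec4a3* (1.34), *Slamf7* (1.31), *Lcp1* (1.28), *Pld4* (1.19), *Slfn2* (1.03) and *Dock2* (1.02). Among matrix and fusion genes these were *Postn* (2.44), *C1qtnf3* (2.39), *Mymk* (2.09), *Cilp* (1.42), *Timp1* (1.04) and *Cd44* (0.91). The remaining genes that were higher in untreated *Dysf-/-* mice and had a more positive effect with the transgene were *Serpina3n* (1.93), *Rps15a-ps2* (1.88), *Slc38a1* (1.55), *AI504432* (1.13), *Fgl2* (0.80), *Fabp5* (0.78), *D17Ertd663e* (0.72), *Airn* (0.64), *Arid5b* (0.56) and *Wiz* (0.38).

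A smaller or opposite effect was measured for 6 genes that were higher in untreated *Dysf-/-* mice, *Pcbd1* (-0.42), *Osbpl3* (-0.43), *Entpd4* (-0.64), *Slc8a3* (-0.71), *A530032D15Rik* (-1.53) and *Olfr352* (-1.84). *Entpd4* measured 9.13, 9.53 and 9.44 in *F66* and 9.39, 9.47 and 9.20 in *F66;Dysf-/-* mice, with overlapping groups, while the untreated pair was apart at 8.82, 8.89 and 8.83 against 9.39, 9.58 and 9.47. *A530032D15Rik* measured 7.55, 8.20 and 6.69 in *F66* mice, above its values of 6.08, 6.06 and 5.04 in *wt*.

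Of the genes that were lower in untreated *Dysf-/-* mice, 10 had a more negative effect with the transgene, *Dach2* (-0.28), *Dysf* (-0.32), *Ocrl* (-0.33), *Il15ra* (-0.36), *Prickle3* (-0.47), *Slc16a3* (-0.59), *Car14* (-0.71), *Tfcp2l1* (-0.99), *Odf3l2* (-1.06) and *Aldh1a1* (-1.17). The effect was more positive for 3, *C530025M11Rik* (0.94), *Nnt* (0.88) and *Olfr49* (0.71). *Nnt* differed by -1.03 in the untreated pair, -1.09 in the injected pair and -0.15 in the transgenic pair.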

How the results depend on the processing

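The count of 99 genes was 103 with the replicate number as a replicate block, 85 after centring and between 97 and 128 under the filter on dim genes, new quantile normalization, the mean of a gene's rows and the other eBayes options. Centring took calls mostly from the lower genes, with 60 higher and 25 lower against 61 and 38 as deposited. The lower calls numbered 36 to 53 in the other runs just named. It was 29 with limma on the 6 arrays (24 of them shared with the 99), 50 on the 12 transgene-free arrays (44 shared), 266 over all rows and 47 with at least 1.5-fold. The methods' t-test gave 19 genes at the study's threshold (16 shared) and 0 after adjustment, with 1532 at an unadjusted p under 0.05. Leaving out 1 array gave 31 to 86 genes, with 0 changes of sign among the 99. Fewer arrays leave fewer degrees of freedom, and the cause of single losses was not tested.

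Same-numbered *wt* and *Dysf-/-* arrays deviated together with r of 0.04, 0.04 and -0.05, which does not pair these 2 groups. The same check gave 0.21, 0.29 and 0.04 for *wt* and injected *wt*, and 0.19, 0.21 and 0.0011 for injected *wt* and injected *Dysf-/-* arrays. For *wt* and injected *Dysf-/-* arrays it gave 0.15, 0.26 and -0.04, so that 1 pair of each 3 was near 0. Untreated *Dysf-/-* arrays did not share this, with -0.04, -0.08 and -0.07 for injected *wt* and 0.12, -0.07 and -0.01 for injected *Dysf-/-* arrays. In the injected pair the 387 calls became 187 on the 12 arrays and 169 to 490 with 1 array left out. The 1 interaction call with injection became 2 under the replicate block, 0 on the 12 arrays, 0 with the mean of rows and 0 to 3 with 1 array left out, against 1570 at an unadjusted p under 0.05. The totals of 7034 and 3336 genes with the transgene stayed within 1.5 times in each alternative run, at 5376 to 6371 and 2511 to 3168 with 1 array left out. Centring turned the split of the first from 2930 higher and 4104 lower to 3320 and 2726.

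Signs turned only for named genes that were not called. With 1 array left out, differences ran from -0.20 to 0.17 for *Capn3*, -0.014 to 0.14 for *Cd247*, -0.26 to 0.020 for *Cxcr2*, -0.11 to 0.039 for *Fst*, -0.12 to 0.051 for *Gdf11*, -0.12 to 0.30 for *Inhba*, -0.12 to 0.056 for *Krt5* and -0.0043 to 0.19 for *S100a10*. *Fst* was 0.0095 after quantile normalization and 0.0083 after centring, and *Myh1* 0.020 with the mean of rows. Centring moved the median of all genes from -0.02 to 0.0032.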
